A study of Bos taurus with 20 samples.

Results

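Scurred and horned cattle (Bos taurus) were compared directly on 4 of the 20 arrays of the series, which are the arrays titled as horned against scurred on chips 1 to 4. Each array carried RNA of 1 horned animal labelled with the red dye Cy5 and RNA of 1 scurred animal labelled with the green dye Cy3, so 4 arrays gave 4 ratios. The biopsies came from the part of the skull where horns form and held epidermis, dermis and the connective tissue beneath. The 4 scurred animals were 3 males and 1 female, and the 3 horned animals were 2 males and 1 female. Chip 1 paired male with male, chip 2 female with female and chip 3 male with male. Chip 4 paired a male scurred animal with the horned female that also served chip 2. The other arrays of chips 1 to 4 compared both types with 4 polled (naturally hornless) animals, 1 male and 3 females, and are used below only for the dye and for values set side by side. Breed and age are not given in the sources used here, and no treatment is named for any group.

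A horn is a bony core that is fused to the frontal bone and sheathed in hard keratin made by the epidermis over it. A scur is a loose, rudimentary horn in the skin over the same site, set in the dermis rather than joined to the skull. Horn growth depends on signals between the epidermis and the dermis, and a biopsy of the site mixes keratinocytes, hair follicles, glands, fibroblasts, vessels, nerves, blood and sometimes muscle.

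Every value below is a log2 ratio of scurred over horned skin, so 1 stands for a doubling and a value below 0 for a lower level in scurred skin. A probe was tested when 4 or more of the 8 channels were well above background, which held for 15046 of 21475 probes and 11593 genes with a symbol. The 4 chips differed in spread, with an SD over genes of 0.87 on chip 1 and of 0.52, 0.44 and 0.54 on chips 2 to 4. Per the file headers, chips 2 to 4 share a scan day and chip 1 has a different one. Over genes, which are not independent replicates, the ratios of chips 1 and 2 correlated at r = 0.315 and those of chips 2 and 4, which share a horned animal, at 0.304, while chips 1 and 4 stood at −0.099. Of 29 defining markers of the cell types of skin, blood, nerve and muscle, 22 were well above background in all 8 channels. The melanocyte marker TYRP1 and the adipocyte marker ADIPOQ were too dim to be tested. An unnamed transcript measured by probe A_73_115509, singled out after its values were seen, stood at −0.02, −0.30, 0.02 and −6.76 on chips 1 to 4. It was far lower on chip 4, the chip that set a male against a female, and near 0 on the 3 chips of 1 sex.

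No gene passed the test between scurred and horned skin. With limma's moderated test and Benjamini-Hochberg adjustment over 15046 probes, 0 probes (0%) had an adjusted p under 0.05 on the direct arrays, and the lowest adjusted p was 0.285. At an unadjusted p under 0.05 there were 1075 probes (7.14%), of which 506 (3.36%) were higher and 569 (3.78%) lower in scurred skin. The mean of a gene is weighted for the horned animal that chips 2 and 4 share, and its standard error (SE) comes from 4 chips. Of the 11593 genes with a symbol, 1312 (11.3%) were higher on 4 of 4 chips and 1177 (10.2%) were lower on 4 of 4. A set of 4 genes (0.0345%), IFI47, HBB, HBA and LPO, lay more than 1 above 0 on each chip. Another 5 (0.0431%), TMEM80, KCNA3, PCK1, TGM2 and AGT, lay more than 1 below 0 on each chip.

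The arrays measure a gene through a probe of 60 bases. The first 30 bases are printed, in lower case and from the probe's first base, for 5 genes described next, which had 1 sign on 4 of 4 chips, and for both probes of CADM3, which did not give the same values.
IFI47: ctgcactctctaagctgttttccttgaatc
TMEM80: tgtttgaatatctggatattttttcttcgt
KCNA3: ctctcactctcttaatatttcagcaacaaa
TGM2: cttttgggttccaagcaagcagtagatgtg
MSX1: cttctgtttctatttaacagtacatgtggg
CADM3, probe A_73_108079: taacaatcccaaatcaaatccgtttccagg
CADM3, probe A_73_111911: ctaactctcctgtgctgatctcagaggggc

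IFI47, a GTPase that interferon induces, had the highest mean of the 1312 genes that were higher on 4 of 4 chips. Its normalised log2 intensity in scurred skin was 12.72, 11.32, 12.20 and 12.15 on chips 1 to 4, against 8.80, 7.91, 8.82 and 7.56 in the horned skin of the same arrays. All 4 scurred animals lay above all horned channels, and the ratios were 3.92, 3.40, 3.38 and 4.59. Intensities, here and below, were normalised within each array and not scaled between arrays. The mean was 3.79 (SE 0.33), which did not pass (limma adjusted p 0.349). The mean ran from 3.57 to 4.26 over the 16 settings tried, with an adjusted p from 0.108 to 0.885.

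TMEM80, which encodes a transmembrane protein, was the gene of lowest p. Its log2 intensity was 6.98, 7.53, 6.91 and 6.59 in scurred skin against 8.63, 9.36, 8.35 and 8.42 in horned skin. Scurred lay below horned on each array, and the ratios were −1.65, −1.84, −1.44 and −1.83. The mean was −1.66 (SE 0.13, limma adjusted p 0.285). The scanner software's processed signals, to which no offset is added, gave −3.25 (adjusted p 0.155). The probe was dim, and the cause of the larger ratio was not tested. KCNA3, a voltage-gated potassium channel known from T cells, was similar, with ratios of −1.60, −1.18, −1.34 and −1.35 and a mean of −1.39 (SE 0.13, adjusted p 0.349). Its lowest mean over the settings was −2.63.

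**Figure D1:**
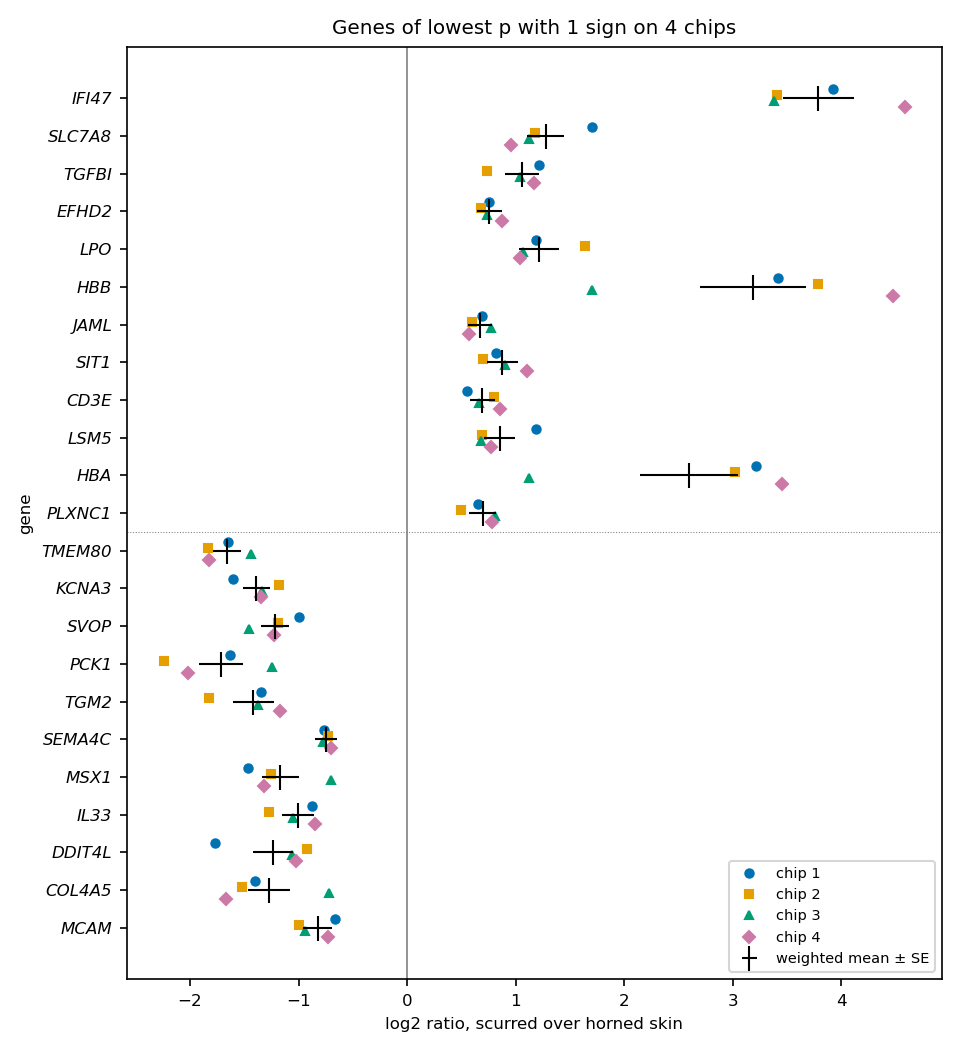
Log2 ratio of scurred over horned skin (x axis) for higher and lower genes of lowest p with 1 sign on 4 of 4 chips (y axis), with a symbol for each chip and a black bar for the weighted mean ± SE. IFI47, HBB and HBA lie farthest to the right, HBB and HBA with chip 3 below the other chips, and TMEM80 and KCNA3 lie between −1.84 and −1.18.

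The other genes that led the higher side had several roles, and none passed (limma adjusted p 0.688). SLC7A8, an amino acid transporter, stood at 1.70, 1.18, 1.13 and 0.96 on chips 1 to 4, with chip 1 highest. TGFBI, a matrix protein that TGF-beta induces, stood at 1.22, 0.74, 1.04 and 1.17, with a mean of 1.06 (SE 0.15). EFHD2, a calcium-binding protein, was even at 0.75, 0.68, 0.74 and 0.87. LPO, the secreted enzyme lactoperoxidase, stood at 1.19, 1.64, 1.07 and 1.04, although its probe was well above background in only 2 of the 4 horned channels. LSM5, a part of the RNA processing machinery, had a mean of 0.85 (SE 0.14). PLXNC1, a semaphorin receptor, had 0.70 (SE 0.13). JAML, an adhesion molecule of leukocytes, had 0.67 (SE 0.11), with ratios between 0.57 and 0.77.

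On the lower side, PCK1, the enzyme that controls gluconeogenesis, stood at −1.64, −2.24, −1.24 and −2.02, with a mean of −1.72 (SE 0.20, limma adjusted p 0.59). Its probe was well above background in 3 of the 4 scurred channels and in all horned ones. TGM2, the tissue transglutaminase that crosslinks proteins, had bright signals, with a log2 intensity of 13.07, 12.52, 11.57 and 12.46 in scurred and 14.41, 14.35, 12.95 and 13.63 in horned skin. Scurred lay below horned on each array, with ratios of −1.34, −1.83, −1.38 and −1.17 and a mean of −1.42 (SE 0.19, adjusted p 0.688). The homeobox gene MSX1, which acts in head and appendage development, stood at −1.47, −1.26, −0.70 and −1.32, with a mean of −1.17 (SE 0.17, adjusted p 0.688). Chip 3 was nearest to 0 for MSX1 and also for COL4A5, a collagen chain of basement membranes, which stood at −1.40, −1.52, −0.72 and −1.67. SVOP, a protein of synaptic vesicles, had a mean of −1.22 (SE 0.13). DDIT4L, a stress-induced inhibitor of mTOR signalling, stood at −1.77 on chip 1 and between −1.06 and −0.92 on the others. AGT, the precursor of angiotensin, was named after its values were seen and stood at −2.83 on chip 1 and at −1.12, −1.07 and −1.15 on chips 2 to 4. Neither DDIT4L nor AGT passed (adjusted p 0.688 for each).

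All 4 arrays carried horned RNA in Cy5, so a probe that shines more in Cy5 than in Cy3 for the same RNA reads as lower in scurred skin. The dye effect was measured on the 8 polled and horned arrays, where each pair was run in both dye orders. It passed at 2390 of 15046 probes (15.9%, limma adjusted p under 0.05), 1104 (7.34%) of them brighter in Cy5, and its median size over probes was 0.07. The count was 35 without chip 3 and 4172 without chip 4, with 800 and 1238 without chips 1 and 2. A second set of ratios therefore joined the 4 arrays of each chip in a closed loop, with a term for dye. On these dye-balanced ratios 0 of 15046 probes (0%) passed (limma, lowest adjusted p 0.483), and 900 (5.98%) reached an unadjusted p below 0.05, with 376 (2.5%) above 0 and 524 (3.48%) below.

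Several leading genes were near their direct value once the dye was balanced. Leading genes had been chosen for 1 sign on 4 of 4 chips in both sets of ratios, and the dye-balanced ratios include the direct array. The closeness is thus not an independent check. IFI47 stood at 3.80 (SE 0.32), TMEM80 at −1.70 (SE 0.12), KCNA3 at −1.38 (SE 0.13), TGM2 at −1.52 (SE 0.20) and MSX1 at −1.16 (SE 0.17). SEMA4C, a membrane semaphorin, showed the opposite case. Its direct ratios were −0.76, −0.73, −0.77 and −0.70, with a mean of −0.75, and its dye-balanced mean was −0.38 (SE 0.12) beside a dye term of 0.43. MCAM, an adhesion molecule of vessels, went from −0.82 to −0.41 and IL33, an alarmin cytokine, from −1.0017 to −0.70. Of the 11593 genes, 767 (6.62%) were higher and 805 (6.94%) lower on 4 of 4 chips in both sets of ratios.

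The 5 genes chosen for their dependence on the dye were 3 ribosomal protein genes, CFL1 and HOMER3. RPS18 stood at −0.37, −0.57, −0.60 and −0.61 on the direct arrays but at −0.10 (SE 0.11) with the dye balanced, beside a dye term of 0.45. RPS10 and RPS14 went from −0.55 to −0.15 and from −0.61 to −0.21. CFL1, the actin-severing protein cofilin, went from 0.60 to 0.24 and HOMER3, a scaffold protein, from 0.64 to 0.30, with dye terms of −0.39 and −0.40. Of 72 ribosomal protein genes tested, 60 were below 0 on the direct arrays and 57 with the dye balanced. On the direct arrays 18 were lower on 4 of 4 chips (10.2% over all genes). Of these, 5 were lower on 4 of 4 chips in both sets of ratios (6.94% over all genes). Their median was −0.13 on the direct arrays and −0.09 with the dye balanced, and without loess, with each array centred on its median, it was −0.42.

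**Figure D2:**
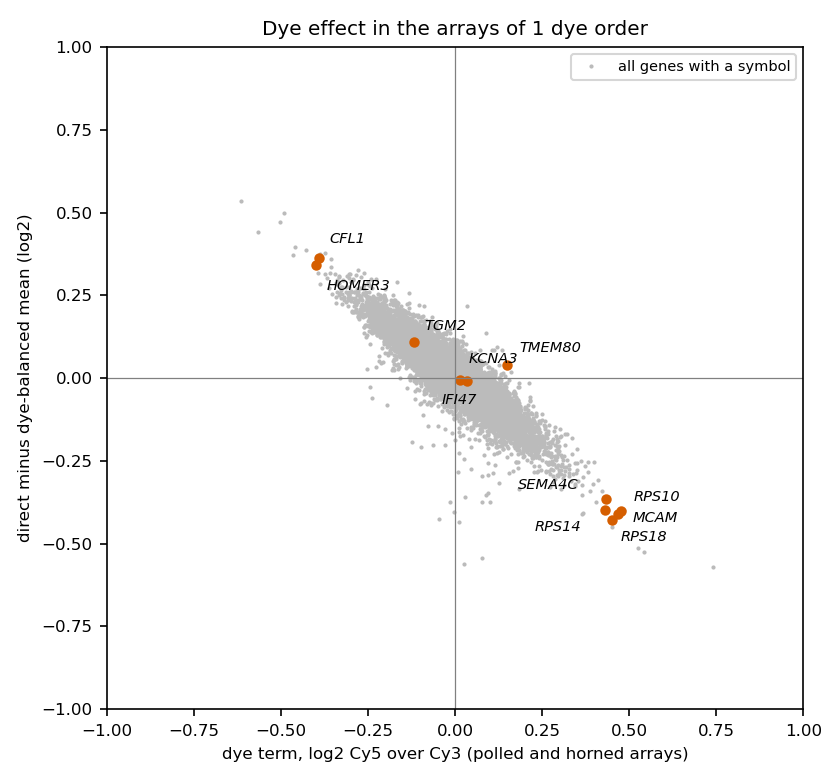
Direct minus dye-balanced mean (y axis, log2) against the dye term from the polled and horned arrays (x axis, log2 Cy5 over Cy3), with a grey point for each gene with a symbol and named genes in orange. Genes brighter in Cy5 lie low on the right, RPS10, RPS14, RPS18, MCAM and SEMA4C among them, CFL1 and HOMER3 lie at the upper left, and IFI47 and KCNA3 lie near the centre.

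Genes of the outer skin layers stood higher in scurred skin on chips 1 and 2 and not on chips 3 and 4. In such bulk samples, fewer cells of a type and less RNA per cell cannot be told apart. Over all genes tested, 53.7% had a mean above 0 and the median was 0.02. For the cornified envelope, the protein shell of the outermost cells, 23 of 24 tested genes (38 listed) had a mean above 0, with a median of 1.47. The chip medians were 3.20, 1.87, 0.08 and −0.25, and 2 of the 24 genes were higher on 4 of 4 chips (11.3% over all genes). The median was 0.59 without chip 1 and 2.01 without chip 3. CSTA, a protease inhibitor of the cornified envelope, stood at 6.49, 3.86, 0.79 and −0.20. KRT10, a keratin of differentiating epidermis, stood at 8.09, 4.31, 0.46 and −3.10. ST14, the membrane protease matriptase, stood at 2.54, 1.61, 0.98 and 0.22, the only 1 of these named genes above 0 on each chip.

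The lower epidermal layers showed the same order of chip medians. Basal keratinocyte and hemidesmosome genes had a median of 0.63, with 13 of 17 tested above 0 and chip medians of 1.99, 0.45, 0.22 and −0.25. KRT5, the keratin of basal cells, stood at 4.37, 2.98, 1.16 and −1.09, and its mean of 2.04 had an SE of 1.20 (limma adjusted p 0.738). COL17A1, a hemidesmosome collagen, stood at 3.71, 2.83, 1.49 and −0.17. COL7A1, which anchors the epidermis to the dermis, stood at 3.73, 2.49, 0.22 and 0.13. Desmosomes and cadherins had a median of 0.95 with 12 of 13 above 0, and PKP1, a desmosome plaque protein, stood at 3.87, 2.12, 0.12 and 0.31. For stress keratins and alarmins, 12 of 14 were above 0 with a median of 1.58, and chip medians of 3.58, 1.93, −0.03 and −0.30. S100A8, an alarmin of inflamed epidermis, stood at 7.29, 2.18, −0.24 and 0.72. S100A12 stood at 6.19, 3.21, −0.41 and 1.47. Within that list TGM2 and the defensin DEFB1 lay the other way, DEFB1 at −2.85, 0.11, −2.07 and −0.64. Without chip 1 the medians were 0.17 for the basal list, 0.38 for desmosomes and 0.37 for stress keratins.

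The summed intensity of the 24 cornified genes was taken for each channel. It was 1020000, 353000, 14300 and 7360 in scurred animals 1 to 4, against 35500, 30100, 11600 and 21100 in the horned channels. Within an array, scurred lay above horned on chips 1 to 3 and below it on chip 4. Arrays were not scaled to each other, so levels of different chips are not strictly comparable. The horned channels of chips 2 and 4 came from the same animal and read 30100 and 21100.

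**Figure D3:**
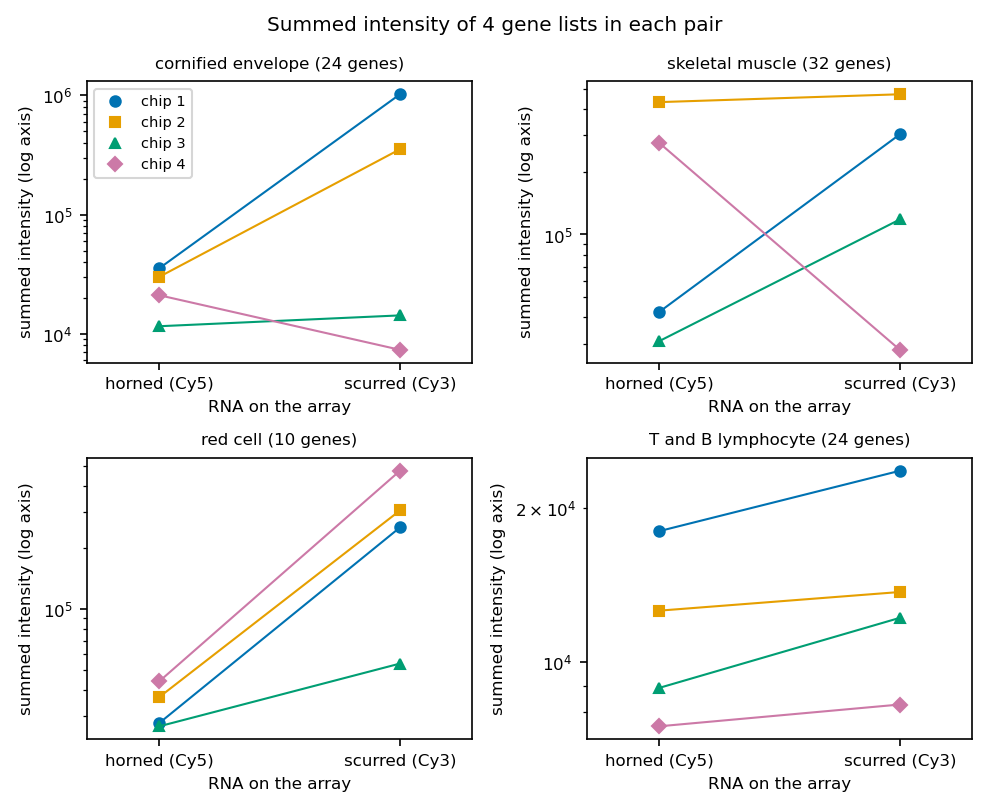
Summed normalised intensity (y axis, log scale) of the genes of 4 lists in the horned and the scurred RNA of each array (x axis), with a line joining the channels of a chip. The cornified lines climb steeply on chips 1 and 2 only, the skeletal muscle lines cross, and the red cell and lymphocyte lines climb on each chip.

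The sweat gland and melanocyte lists had medians above 0 on each chip. Sweat gland and simple keratin genes had a median of 0.54, with 17 of 20 tested above 0. Of these 20, 5 were higher on 4 of 4 chips (11.3% over all genes). At an unadjusted p under 0.05 there were 4 (3.71% of all genes in this direction). KRT19, a keratin of simple epithelia, stood at 0.23, 1.87, 1.51 and 1.07, lowest on chip 1 where the epidermal genes were highest. KRT7, of the same kind, stood at 0.98, 1.13, 1.21 and 0.10. TFAP2B, a transcription factor of skin appendages, stood at 1.31, 1.30, 1.18 and 0.22. Melanocyte genes had a median of 0.62 with 11 of 12 above 0 and 7 higher on 4 of 4 chips (11.3% over all genes). GPNMB, a melanosome protein that macrophages also make, stood at 0.23, 1.22, 2.53 and 1.81. PMEL, the fibre-forming melanosome protein, ran in the other order at 3.42, 1.53, 0.49 and 0.08. GPR143, a receptor of pigment cells, stood at 2.78, 1.51, 0.16 and 0.75. None of these genes passed (limma adjusted p 0.688 to 0.716).

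Tight junctions and lipid synthesis were mixed. Among tight junction genes 11 of 18 tested lay above 0 (median 0.20) and 4 were higher on 4 of 4 chips (11.3% over all genes). CGN, the junction protein cingulin, stood at 1.57, 2.02, 1.10 and 0.11, and CLDN3, a claudin, at −0.22, 1.99, 1.68 and 0.98. Of 27 sebaceous and lipid synthesis genes, 14 were above 0, with a median whose sign changed with the scaling. ELOVL6, which lengthens fatty acids, had a mean of 1.14 (SE 0.30), higher on 4 of 4 chips, and FADS1, which desaturates them, a mean of −1.05 (SE 0.29), lower on 4 of 4. The list for the hair shaft and its inner sheath had 8 of 13 members above 0 and a median of 0.13, which was −0.0415 without chip 1. The keratin KRT25 of the inner sheath stood at −2.60, −0.67, −0.73 and −1.51. GATA3, a transcription factor of the same sheath, stood at 2.11, 2.42, 1.03 and 0.13. These 2 markers of the sheath thus lay on opposite sides of 0 on each chip.

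**Figure D4:**
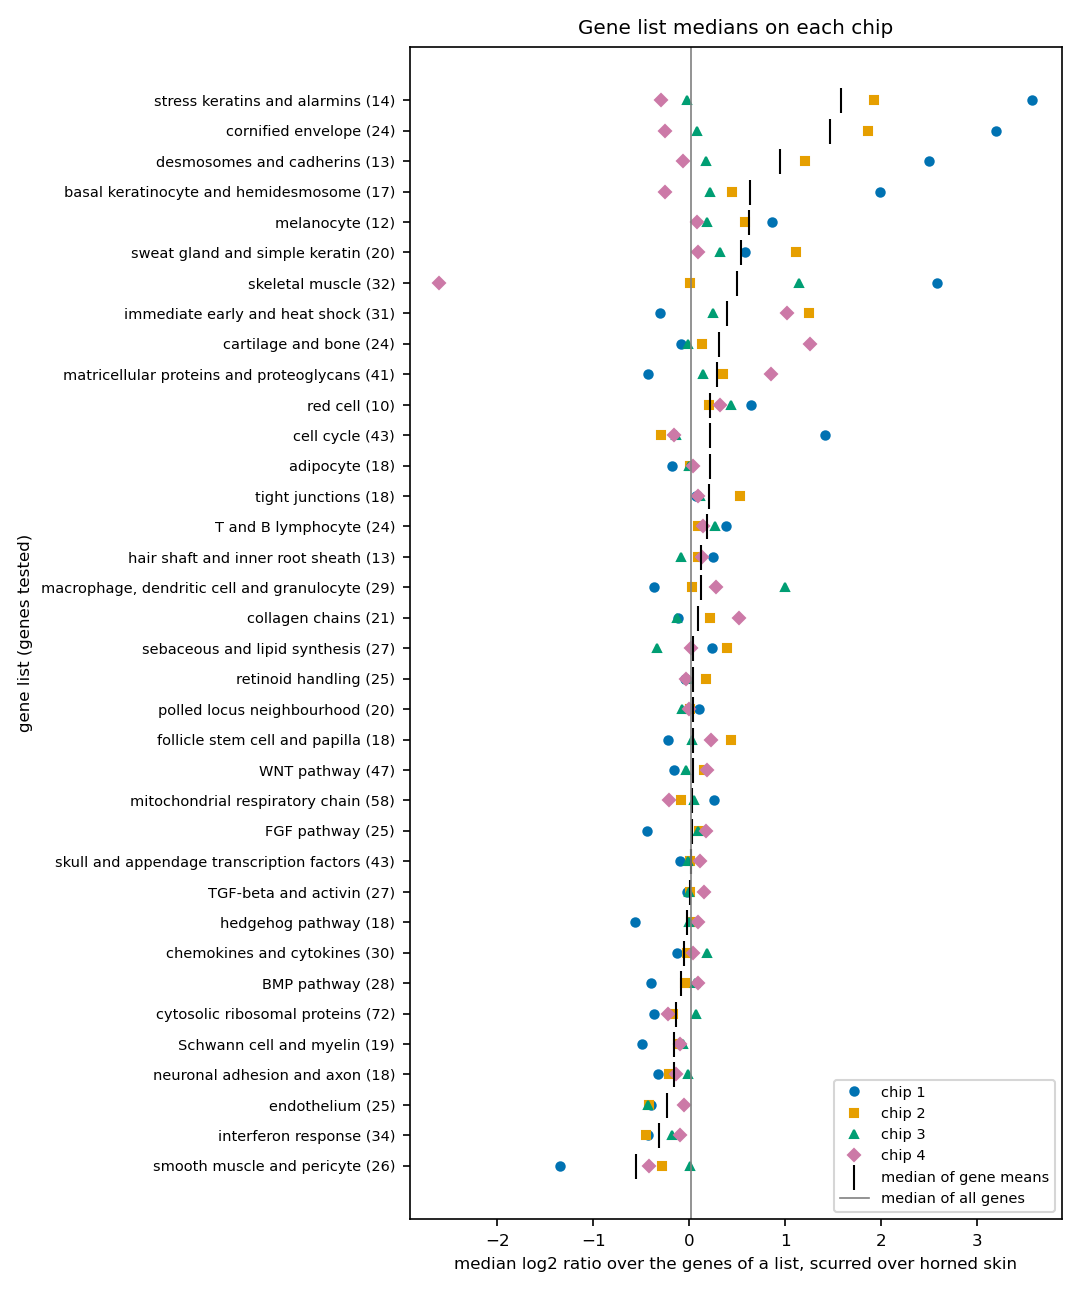
Median log2 ratio of scurred over horned skin (x axis) over the tested genes of 36 gene lists (y axis, number tested in brackets), with a symbol for each chip, a black bar for the median of the gene means and a grey line for the median of all genes. The epidermal lists at the top spread from chip 1 on the right to chip 4 on the left, skeletal muscle spreads widest, and most signalling lists lie near 0. The medians of the WNT, FGF, TGF-beta, retinoid, polled locus, skull factor, collagen, mitochondrial, macrophage, sebaceous, follicle stem cell and chemokine lists change sign with the scaling or the dye.

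Of the 36 lists, the lymphocyte genes had the largest count of members higher on 4 of 4 chips. Lists differed in size, and 7 of 12 melanocyte and 5 of 10 red cell genes were also higher on each chip. Of 24 tested T and B lymphocyte genes (38 listed), 18 had a mean above 0, 13 were higher on 4 of 4 chips and 10 had an unadjusted p under 0.05. Over all genes these shares were 11.3% and 3.71%. The median was 0.19, with chip medians of 0.38, 0.09, 0.27 and 0.14. It ran from 0.17 to 0.24 with a chip left out, and was 0.0831 with median centring and 0.55 with the scanner's processed signals. SIT1, an adaptor of T cells, stood at 0.82, 0.70, 0.90 and 1.11, with a mean of 0.88 (SE 0.14, limma adjusted p 0.688). CD3E, a chain of the T-cell receptor complex, was similar at 0.55, 0.80, 0.67 and 0.85, and its partner chain CD3G stood at 1.14, 0.82, 0.49 and 0.72. BLK, a kinase of B cells, stood at 1.89, 0.93, 0.77 and 1.24. The summed intensity of the list was 23600, 13700, 12200 and 8270 in scurred against 18000, 12600, 8910 and 7500 in horned channels. Scurred was the higher of the pair on each chip. The levels overlapped across chips, but arrays were not scaled to each other, and horned animal 2 itself read 12600 and 7500.

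Most red cell genes had a mean above 0 too, led by the globins. HBB, the beta chain of haemoglobin, stood at 3.42, 3.79, 1.71 and 4.47, with a mean of 3.19 (SE 0.49), and HBA, the alpha chain, at 3.22, 3.02, 1.12 and 3.46. HBG, a fetal-type globin, stood at 3.30, 3.16, 0.87 and 3.35, and near-identical globin genes may share signal on these probes. Chip 3 was lowest for each of them, and none passed (limma adjusted p 0.688). The summed intensity of the 10 tested red cell genes was 251000, 304000, 54000 and 476000 in scurred against 27600, 37000, 26600 and 44200 in horned skin. Scurred was thus the higher of the pair on each array. The part of blood in other ratios was not tested. The median of the whole list was 0.22, with 9 of 10 above 0. The remaining gene was lower on 4 of 4 chips (10.2% over all genes) and had an unadjusted limma p under 0.05 (3.86% over all genes).

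Myeloid genes lay on both sides of 0, and the sign of their median changed with the scaling and without chip 3. Of 29 tested genes of macrophages, dendritic cells and granulocytes, 21 were above 0, with chip medians of −0.37, 0.03, 0.9966 and 0.28. AIF1, a macrophage gene, was even at −0.85, −0.61, −0.56 and −0.69 (mean −0.68, SE 0.12, limma adjusted p 0.688). CD14, a co-receptor for bacterial lipopolysaccharide, stood at 0.78, 0.07, 0.67 and 0.70. CD83, of mature dendritic cells, stood at 0.20, 0.57, 1.07 and 0.66. SIGLEC1, a macrophage receptor, stood at −0.27, 0.03, 2.59 and 1.84, and MARCO, another, at −2.50, −0.95, −0.25 and 0.00. AIF1 was thus below 0 on 4 of 4 chips while CD14 and CD83 were above 0 on 4 of 4.

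Most of the interferon list had a mean below 0, the opposite side from IFI47. Of 34 tested genes (54 listed), 29 had a mean below 0, 8 were lower on 4 of 4 chips and the median was −0.31, with chip medians of −0.43, −0.45, −0.18 and −0.09. Over all genes 46.3% had a mean below 0 and 10.2% were lower on 4 of 4 chips. IRF1, a transcription factor that interferon induces, stood at −1.07, −0.54, −0.43 and −0.83. IFI30, a lysosomal reductase, was above 0 at 0.43, 0.55, 0.74 and 0.38. GBP6, a guanylate-binding protein, stood at −3.70, 0.44, −0.80 and 0.63. The 2 genes of the list that were higher on 4 of 4 chips were IFI47 and IFI30. Of 30 chemokine and cytokine genes, 14 were above 0 and 16 below, with a median whose sign changed with the dye balanced. CCL19, a chemokine that guides T cells and dendritic cells, stood at −1.36, −0.80, −1.80 and −1.78, with a mean of −1.47 (SE 0.28). CXCL12, a chemokine of stromal cells, stood at −1.42, −0.82, −0.57 and −0.98. Neither passed (limma adjusted p 0.688 for each).

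Most tested vessel and nerve genes had a mean below 0. Of 26 tested smooth muscle and pericyte genes, 22 had a mean below 0 and 11 were lower on 4 of 4 chips. Over all genes these shares were 46.3% and 10.2%. The smooth muscle list had a median of −0.56 and chip medians of −1.35, −0.29, 0.01 and −0.42. Without chip 1 the median was −0.25. MYH11, the myosin of smooth muscle, stood at −3.73, −0.94, −0.68 and −1.45, and ACTA2, its actin, at −2.48, −0.63, −0.09 and −1.10. Of 25 endothelial genes, 20 were below 0, 8 were lower on 4 of 4 chips and 7 had an unadjusted p under 0.05 (3.86% over all genes). Their median was −0.23, and the chip medians were −0.40, −0.42, −0.43 and −0.05, so chips 1 to 3 lay together and chip 4 near 0. TEK, the angiopoietin receptor, stood at −1.09, −0.90, −1.0027 and −0.53, and KDR, a receptor for VEGF, at −0.57, −0.95, −0.55 and −0.74. VWF, the clotting factor that endothelium stores, stood at −1.18, −0.25, −0.64 and −0.53. None passed (limma adjusted p 0.688 to 0.706).

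For nerve, 15 of 19 tested Schwann cell and myelin genes were below 0 and 6 were lower on 4 of 4 chips (10.2% over all genes). The median was −0.15, with chip medians of −0.49, −0.12, −0.06 and −0.09, and it was −0.0644 without chip 1. Of 18 tested neuronal adhesion and axon genes, 11 were below 0 and 7 above, with a median of −0.15. GFAP, an intermediate filament of glia, stood at −1.05, −0.84, −0.66 and −0.31. NGFR, the low-affinity receptor for nerve growth factor, stood at −1.11, −0.22, −1.35 and −0.31. CADM3, a nerve adhesion molecule, was measured by 2 probes. The brighter gave −1.89, −0.37, −1.68 and −0.93 (mean −1.33, SE 0.30), and the other gave −0.93, −1.38, −1.13 and −0.92 (mean −1.08, SE 0.16). Both were below 0 on each chip but put chip 2 at opposite ends. SLITRK4, a membrane protein of neurons, had a mean of −0.82 (SE 0.20) and ROBO2, a receptor in axon guidance, of 0.52 (SE 0.14), each with 1 sign on 4 of 4 chips.

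Dermal matrix genes varied by chip, and the median of their list was highest on chip 4. Of 41 tested matricellular and proteoglycan genes, 27 were above 0 and 7 higher on 4 of 4 chips (11.3% over all genes). Their chip medians were −0.43, 0.35, 0.14 and 0.86. THBS4, a thrombospondin, stood at 1.69, 0.9992, 0.41 and 1.24 (mean 1.08, SE 0.25). SPARCL1, a matrix protein near vessels, stood at −2.77, −0.64, −1.12 and −1.02. TNC, a tenascin of growing and healing tissue, stood at 1.44, 0.86, 0.61 and 3.71. Of 21 collagen chains, 12 were above 0, with a median whose sign changed with the scaling. COL12A1, a collagen on the fibril surface, stood at −0.10, 0.78, 1.01 and 1.63 and COL3A1, a fibril collagen, at −2.61, −1.13, 0.65 and −0.59. Of 24 cartilage and bone genes, 18 were above 0, with chip medians of −0.08, 0.14, −0.01 and 1.26 and a median of 0.32 that was −0.06 without chip 4. ACP5, the acid phosphatase of osteoclasts, stood at 0.10, 0.57, 2.58 and 3.70. PTHLH, a parathyroid-related hormone of skin and cartilage, stood at 2.76, 0.97, 0.54 and 0.82.

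The 3 highest genes of those past 1 on chip 4 alone were TNN, OMD and HAPLN1. TNN, a tenascin of bone and skin appendages, stood at 4.62 on chip 4 and between −0.69 and 0.65 on the others, and was well above background in 2 of 4 channels of each type. OMD, a proteoglycan of mineralised matrix, stood at 3.92 there, and HAPLN1, which links hyaluronan to proteoglycans, at 3.73. In all, 149 genes were higher and 54 lower by more than 1 on chip 4 alone. The counts were 537 and 501 on chip 1, 103 and 27 on chip 2, and 67 and 56 on chip 3.

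Several chemokine genes and the cell cycle list were high on chip 1, although the median of the chemokine and cytokine list was −0.13 there and CCL19 and CXCL12 lay below 0. CXCL2, a chemokine for neutrophils, stood at 7.28 on chip 1 and between −0.20 and 0.89 on the others. GRO1, a related chemokine, stood at 4.73 there and IL1A, an alarm cytokine of keratinocytes, at 4.61. The neutrophil chemokine CXCL8 stood at 5.54 on chip 1 and 1.06, −0.07 and 0.79 on the others. On the same chip SPP2, a secreted phosphoprotein, stood at −5.15, PTN, a growth factor of stroma, at −3.97 and KERA, the proteoglycan keratocan, at −3.73. Cell cycle genes had a chip median of 1.42 on chip 1 and of −0.29, −0.13 and −0.16 on chips 2 to 4, and 34 of 43 had a mean above 0. Their median was 0.22 with 4 chips and −0.19 without chip 1. CCNB1, a mitotic cyclin, stood at 2.69, −0.04, −0.27 and 0.37, and UBE2C, a mitotic ubiquitin enzyme, at 2.26, −0.02, 0.17 and 0.08.

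Chips 2 and 3 had fewer genes of their own. CES4A, a carboxylesterase, stood at 3.19 on chip 2, PDZK1, a scaffold of transporters, at 3.00 and FAR2, which makes fatty alcohols for wax, at 2.40, while CNRIP1, which binds the cannabinoid receptor, stood at −3.73. On chip 3, EMB, the adhesion molecule embigin, stood at 3.02 and SPOCK1, a matrix proteoglycan, at 2.18. CHL1, a neural adhesion molecule, stood at −1.92 there and UNC5C, a netrin receptor, at −1.79.

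Skeletal muscle genes had the widest spread of any list and followed single animals. The chip medians over 32 tested genes were 2.58, 0.01, 1.14 and −2.60. MYL1, a myosin light chain, stood at 6.77, −0.60, 5.28 and −6.77, ACTA1, the actin of skeletal muscle, at 5.09, 0.52, 5.10 and −5.96, and MYH7, a slow myosin, at 4.71, 0.83, 3.98 and −5.02. The summed intensity of the list was 302000, 470000, 118000 and 28000 in scurred and 42500, 431000, 30800 and 275000 in horned channels. Muscle signal was thus high in scurred animals 1 and 2 and in horned animal 2 on both of its chips, and low in scurred animal 4 and horned animals 1 and 3. TRDN, HRC and PPP1R3A, genes of muscle calcium release and glycogen, were the lowest of the genes past 1 on chip 4 alone, at −2.94, −2.23 and −2.54. In the list 2 of the 32 genes were lower on 4 of 4 chips (10.2% over all genes). MYBPC2, a myosin-binding protein of fast muscle, stood at −1.08, −0.58, −1.58 and −0.86, and PVALB, a calcium buffer of fast muscle, at −1.20, −0.76, −0.10 and −0.48. The part of muscle in the other ratios was not tested. BOLA-DQA2, a class II gene of the cattle major histocompatibility complex, also had large ratios of either sign, at −6.19, 4.50, −4.34 and 4.20.

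Pathways known from hair, skull and limb growth had medians near 0. Those of the WNT, FGF, TGF-beta and retinoid lists changed sign with the scaling, that of the BMP list without chip 1 or chip 3, and that of the hedgehog list under no setting tried. Of 47 tested WNT pathway genes, 26 were above 0 and 21 below. SFRP2, a secreted modulator of WNT signals, stood at −2.19, −0.55, −2.01 and −0.12, lowest on chips 1 and 3. Those chips differ from chips 2 and 4 in both their scurred and their horned animals, and the cause was not tested. TCF7, a transcription factor that WNT signals use, stood at 1.66, 0.68, 0.21 and 1.31, and KREMEN2, a receptor for WNT inhibitors of the Dickkopf family, at 1.85, 1.09, 0.54 and 0.21. Of 25 FGF pathway genes, 13 were above 0 and 12 below. FGF18, a ligand active in bone and hair follicles, was even at −0.9982, −0.80, −0.53 and −1.02 (mean −0.82, SE 0.14, limma adjusted p 0.688). FGFR2, a receptor, stood at 1.02, 1.71, −0.15 and 3.24, and FGFBP1, which releases FGF from matrix, at 6.53, 2.84, 0.09 and −2.30 in the order of the epidermal genes. In the FGF list 2 of 25 genes were higher on 4 of 4 chips (11.3% over all genes) and 2 were lower (10.2% over all genes). The higher ones were ETV4 and DUSP4, both FGF targets, with means of 1.10 (SE 0.35) and 0.61 (SE 0.19).

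Of 28 BMP pathway genes, 13 were above 0 and 15 below. ID3, a target of BMP signals, stood at −0.60, −0.81, −0.57 and −0.72 and ID4, another, at −2.05, −0.62, −0.59 and −0.94. With the dye balanced their means went from −0.66 to −0.45 and from −1.11 to −0.84. GDF6, a BMP-like ligand of joints and skull, had a mean of −0.72 (SE 0.17), lower on 4 of 4 chips. Among 27 TGF-beta and activin genes, 15 were above 0. INHA and INHBB, subunits of inhibin and activin, stood at means of −0.58 (SE 0.13) and 0.63 (SE 0.20), each with 1 sign on 4 of 4 chips. Of 18 hedgehog genes, 9 were above 0 and 9 below. SUFU, an inhibitor of the pathway, had a mean of −0.56 (SE 0.13).

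Of 25 genes that handle retinoids, 14 were above 0. LRAT, which stores retinol as esters, stood at −0.51, −0.95, −0.58 and −1.02, RDH5, a retinol dehydrogenase, at −0.61, −0.56, −0.41 and −0.82, and CRABP1, which binds retinoic acid, at −2.43, −1.02, −0.24 and −1.11. RARRES1, a gene that retinoids induce, stood at 1.55, 0.22, 1.99 and 1.40. Of 43 factors of skull and appendage development, 23 were above 0, with a median whose sign changed with the scaling. MSX1 is described above, and BARX2, a homeobox factor of epithelia, stood at 3.30, 3.04, 0.93 and −0.31 in the order of the epidermal genes. Near the polled locus of chromosome 1, the region where hornlessness maps, 11 of 20 tested genes (32 listed) were above 0, with a median of 0.04 that was −0.02 with the dye balanced. IL10RB, a receptor chain for interleukin 10, stood at 0.52, 0.28, 0.26 and 0.29, with a mean of 0.35 that was 0.17 with the dye balanced. RCAN1, an inhibitor of calcineurin, had a mean of 0.69 (SE 0.28). None of these genes passed (limma adjusted p 0.688 to 0.717).

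Genes known to respond to handling of tissue had medians above 0 on chips 2 to 4. Of 31 tested immediate early and heat shock genes, 22 had a mean above 0, with chip medians of −0.30, 1.26, 0.25 and 1.02. KLF4, an immediate early transcription factor that keratinocytes also use, stood at −0.67, 2.38, 1.37 and 1.88. HMOX1, a haem-degrading stress enzyme, stood at 2.38, 0.62, 0.85 and 1.22. Mitochondrial respiratory chain genes were split, with 32 of 58 above 0, a median whose sign changed with the scaling and chip medians from −0.20 to 0.26. The part of handling in the other ratios was not tested.

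Scurred and polled skin were both compared with the same horned animals. Between scurred and polled skin 0 of 15046 probes (0%) passed (limma, 1309 probes or 8.7% at an unadjusted p under 0.05). Scurred and polled animals were of opposite sex on each chip. IFI47 stood at 3.65, 3.53, 3.52 and 4.70 in scurred and at 4.05, 3.79, 2.81 and 2.96 in polled skin on the dye-balanced scale, so both types lay far above the shared horned animals and overlapped. TMEM80 stood at −1.80 in the polled animal of chip 1 and at 0.33, 0.27 and 0.93 in the others, against −1.77, −1.88, −1.53 and −1.65 in scurred skin. The scurred minus polled difference was −1.64 (SE 0.46, adjusted p 0.52). TGFBI stood at −0.89, −0.66, 0.12 and 0.08 in polled and at 1.14, 0.65, 1.01 and 1.14 in scurred skin, a difference of 1.32 (SE 0.22, adjusted p 0.52). CD14 stood between −0.72 and −0.57 in polled and between −0.08 and 0.78 in scurred skin, a difference of 1.09 (SE 0.19, adjusted p 0.52). AIF1 stood between −1.77 and −1.59 in polled and between −0.71 and −0.49 in scurred skin, a difference of 1.15 (SE 0.12, limma adjusted p 0.52). For SFRP2 the difference was 3.58 (SE 0.84, limma adjusted p 0.52). For TGM2 the difference was 0.02 (SE 0.22) and for SIT1 −0.03 (SE 0.15). Without chip 2, 1 probe passed, the same unnamed transcript that followed sex on the direct arrays (−6.62, adjusted p 0.028).

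**Figure D5:**
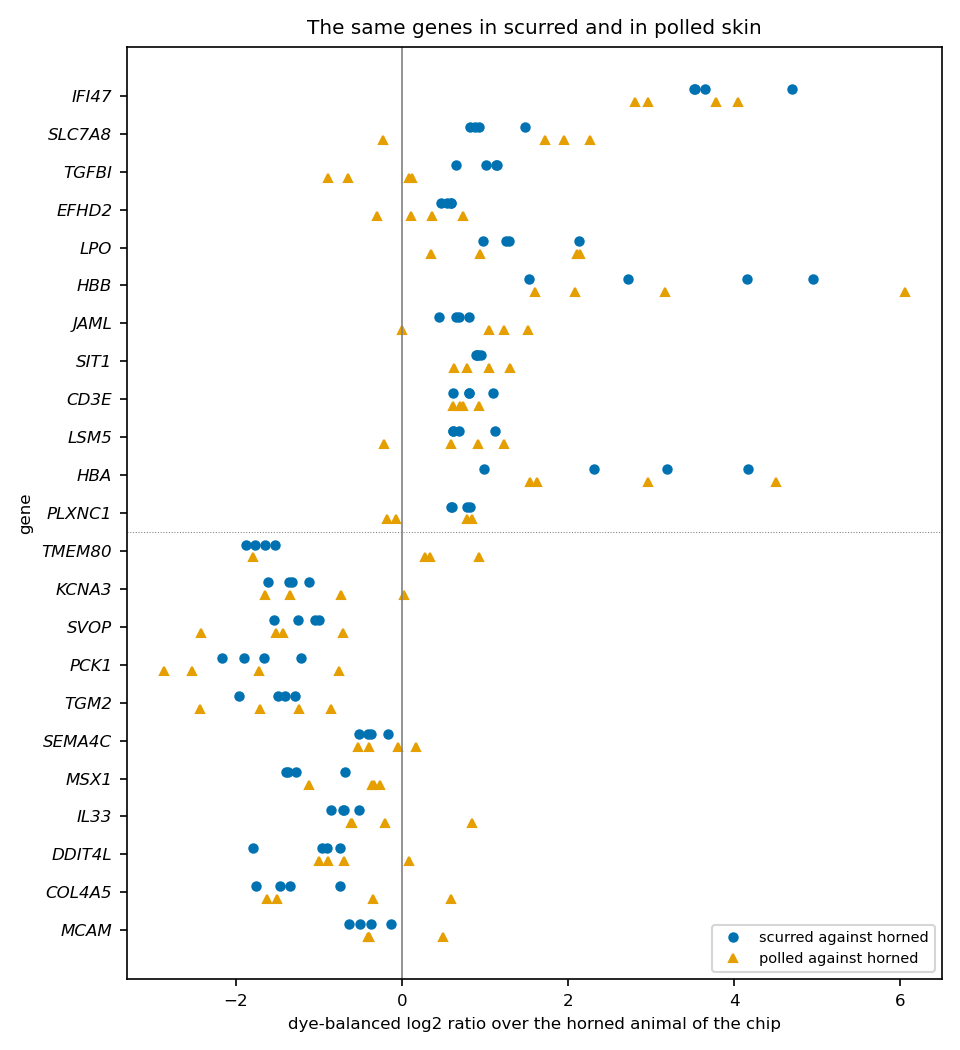
Dye-balanced log2 ratio over the horned animal of the same chip (x axis) for the same leading genes (y axis), with blue circles for the 4 scurred and orange triangles for the 4 polled animals. Both types share the horned animals. IFI47 and HBB lie far to the right in both. For TMEM80 3 of 4 polled animals lie between 0.27 and 0.93 and the scurred animals between −1.88 and −1.53.

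In scurred animal 2 the horn site was also compared with control skin of the skull off that site, on 2 dye-swapped arrays and without a test, as 1 animal was used. The horn site was higher by 3.26 for HBB, 2.01 for TGM2, 5.05 for SFRP2 and 2.16 for CCL19, and the skeletal muscle list had a median of 2.64. IFI47 was higher by 0.90 and TMEM80 stood at −0.06. LPO stood at −2.13 and SLC7A8 at −1.48, so both were lower at the horn site than in the control skin of that animal. MSX1 stood at −0.28 there.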

How the data were processed

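Per the labels, total RNA of each animal was labelled with Cy3 or Cy5 and hybridised to 2-colour Agilent arrays. Spot intensity and background intensity are deposited per array, read with Agilent Feature Extraction (9.5.1 in the submitters' processing notes). The scanner software's processed intensities and log10 ratios are also deposited, and the authors' value table holds the same log10 ratios, with the sign turned on 6 of 20 columns. From the mean and background intensities, limma 3.58.1 (R 4.3.3) made normexp-corrected (offset 50), loess-normalised log2 ratios, with control spots given no weight and flagged spots left out. Duplicate spots were averaged and the brightest tested probe stood for a gene. For 891 genes with more than 1 tested probe, 357 of the 947 other probes had a mean of opposite sign to the probe used. Of 21475 probes, 16981 could be given a symbol.

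The model had 1 ratio a chip, the horned animal as a block with a correlation fixed at 0.5, and Benjamini-Hochberg adjustment. The step was tested on simulated data. Arrays are few, which limits precision. Same-numbered scurred and polled samples shared a chip and a horned animal. Deviations of the scurred and horned channels of the same direct array correlated at 0.355, 0.495, 0.328 and 0.0106 on chips 1 to 4. Named genes were the 12 of lowest p a direction with 1 sign on all chips, the 3 of lowest p and 2 of largest mean a list, 5 dye-dependent genes, the 10 of largest SD and the 3 highest and lowest particular to each chip. Some genes that this rule selects are not reported here. Members and lists were chosen with earlier results of these data known. Alternatives were the scaling, the filter, the dye, the block and each chip left out.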

Additional observations from a re-analysis of the deposited data

Results flagged for a closer look

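A value stood apart from the other 3 chips, by more than Dixon's limit for 4 samples, for 14 of the 145 genes examined singly and for 9 lists. Chance flags about 1 in 20 groups, and 778 of 11593 genes (6.71%) met the limit, 464 of them through chip 1, 65 through chip 2, 139 through chip 3 and 110 through chip 4.

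Chip 1 stood apart for CXCL2 (7.28), GRO1 (4.73), SPP2 (−5.15), UBE2C (2.26), DDIT4L (−1.77), CFL1 (0.88), IL10RB (0.52) and RPS18 (−0.37). Its median also stood apart for the cell cycle list (1.42), the hedgehog list (−0.56), the Schwann cell list (−0.49) and the FGF list (−0.43). Chip 2 stood apart for CES4A (3.19) and CD14 (0.0718), and for the medians of the tight junction list (0.53) and the retinoid list (0.18). On chip 3, HBG stood at 0.87 against 3.16 to 3.35 on the other chips. Chip 4 stood apart for OMD (3.92), PPP1R3A (−2.54) and TFAP2B (0.22), and for the medians of the cartilage and bone list (1.26), the TGF-beta list (0.15) and the endothelium list (−0.0543).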

How the results depend on the processing

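No probe passed between scurred and horned skin under any of the 16 settings tried (limma, lowest adjusted p 0.108), and the 113 genes examined singly by their mean kept their sign in each. Those chosen for 1 sign on all chips in both sets of ratios could not change it with the dye balanced or a chip left out. The other genes examined singly are not in that count, and some changed sign, such as BOLA-DQA2 (means from −2.11 to 0.62). The count at an unadjusted p under 0.05 was 1075, and it was 287 with median centring, 544 with separate channels and no replicate block, and 571 with a sex term over 8 differences. The dye count ran from 35 to 4172 and the scurred against polled count from 0 to 1 with a chip left out, settings chosen after seeing the data. With a chip left out, list medians ran from −0.0415 to 0.247 for hair shaft, −0.36 to −0.0644 for Schwann cell, 0.0309 to 0.36 for adipocyte, −0.0294 to 0.12 for chemokine and −0.0301 to 0.11 for TGF-beta genes. The scanner's processed signals gave −0.48 for Schwann cell, −0.49 for neuronal, 1.495 for melanocyte, 0.83 for red cell and 0.55 for lymphocyte genes. Median centring gave 0.11 for adipocyte, −0.0922 for retinoid, −0.0594 for polled locus and −0.42 for ribosomal protein genes, and the dye-balanced TGF-beta median was 0.10. The causes were not tested. A correlation estimated by duplicateCorrelation could not be obtained and was not run. The 4 arrays share 1 dye order and 3 horned animals, and dim probes near background limit the size of their ratios.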
